A study of Homo sapiens with 6 samples.

Results

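Tight junctions seal the space between neighbouring epithelial cells near their apical edge. Claudins are small membrane proteins that pass through the membrane several times and whose outer loops meet those of the next cell, forming a barrier to some solutes and pores for others. Occludin and tricellulin (gene MARVELD2) are MARVEL-domain proteins of the same strands, JAM-A (gene F11R) is an immunoglobulin-like adhesion molecule, and the zonula occludens proteins of genes TJP1 and TJP3 sit under the membrane and tie claudins to actin. In stratified squamous epithelium, the tissue from which esophageal squamous cell carcinoma (ESCC) arises, these junctions lie in the upper living layers.

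The 9 genes described here were taken by name from the whole table: the claudin genes CLDN1, CLDN4, CLDN7 and CLDN12, together with OCLN, F11R, TJP1, TJP3 and MARVELD2. They are 9 of 67140 gene identifiers, and all 9 were among the 19254 that passed a filter on low counts. The cells were KYSE150, an established human ESCC line grown in serum-supplemented RPMI medium, carrying either a control hairpin (shCtrl, 3 samples) or 1 hairpin against the long non-coding RNA AC007128.1 (shAC007128.1, 3 samples). The study made its stable lines by puromycin selection and asked which genes respond when this RNA is depleted. The labels do not say whether the 3 samples of a group came from separate cultures, so the p-values below measure the spread between these samples, which may be technical. With 1 hairpin for each group, the effect of AC007128.1 and that of the hairpin or the selected line cannot be told apart.

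Depth was 55764405 to 78610457 counts per sample, and 3 counts, taken as the smallest detectable level, correspond to 0.0373 to 0.0546 CPM (counts per 1e+06 counts, scaled by TMM factors), counting error only. The targeted RNA itself was at 0.94, 0.41 and 0.78 CPM in shCtrl replicates 1, 2 and 3 and at 0.32, 0.67 and 0.26 CPM in shAC007128.1 replicates 1, 2 and 3. These groups overlapped, and edgeR's quasi-likelihood test gave it a log2 fold change of -0.77 with a standard error of 0.51, which did not pass (adjusted p = 0.271). These values rest on 15 to 69 counts per sample, so a reduction could be missed. By qPCR, a separate measurement, the study reported that its hairpin lowered this RNA. As a check of the cell type, 7 of 8 squamous epithelial markers were above 10 CPM in every sample, led by the keratin gene KRT5, while SOX2 was below that level. The summed level of these 8 markers was 1778 to 1815 CPM in shCtrl samples and 2573 to 3336 CPM in shAC007128.1 samples, without overlap, and its part in the results below was not tested. In bulk RNA, fewer cells of a type and less RNA per cell cannot be told apart. The sums of the other marker lists were lower, but 2 of them also differed between the groups without overlap. Endothelial markers, led by VWF, summed to 3.28 to 4.26 CPM in shCtrl and 1.17 to 2.42 CPM in shAC007128.1 samples. Fibroblast markers, led by COL1A1, summed to 15.03 to 16.2 CPM and 20.9 to 23.9 CPM. Leukocyte markers, led by CD3E, reached at most 1.29 CPM. Within these lists, KDR and COL1A2 were at or near 0 in every sample. CDH5 had 0 counts in shAC007128.1 samples and up to 0.649 CPM in shCtrl. In contrast, VWF reached 2.45 CPM and COL1A1 reached 18.6 CPM. From shCtrl to shAC007128.1, mean LUM went from 1.07 to 4.71 CPM and mean PDGFRB from 0.47 to 0.15 CPM.

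Genes were compared between shAC007128.1 and shCtrl samples with edgeR's quasi-likelihood test, adjusted over all 19254 genes tested by the Benjamini-Hochberg method. A gene passed the test at an adjusted p of at most 0.05 and was called if it also differed at least 2-fold, the limits that the study set for its own test. Of the 9 genes, 5 passed. F11R and MARVELD2 rose, and CLDN1, CLDN7 and TJP1 fell, which are 2 higher and 3 lower against a background of 21% and 19.8% of all genes tested. CLDN1 and CLDN7 were called lower, 2 of the 9 against 10.1% of all genes. CLDN1 reached the filter on low counts through its shCtrl samples only, so it supports neither this count nor that of the 3 lower. Without it 1 of the 9 was called lower. With edgeR, DESeq2 and limma-voom, 0 of the 9 were called higher, against 5.57% of all genes with edgeR, and 0 were also 2-fold higher at an unadjusted p under 0.05. For 6 of the 9 the 3 samples of one group all lay outside the range of the other, a separation found in 55.2% of all genes tested. CLDN1 is 1 of these 6 and of the 5 that passed, and it supports neither count. The median log2 fold change was -0.34 over the 9, CLDN1 included, and -0.02 over all genes. Because it includes CLDN1, the value over the 9 is not read as a shift. With 9 genes, such counts do not set the group apart from all genes tested.

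Short stretches of the regions around the transcription starts are shown first, because they hold the E-box letters that repressors of the Snail and ZEB families are known to bind at junction genes. RefSeq start windows (GRCh38.p14, from 250 bases before to 50 bases after an annotated start) were found for 8 of the 9 genes, 14 windows in all. The letters searched were CAGGTG or its reverse complement CACCTG, so both strands were covered, and 20.6% of the 35116 windows of all genes hold at least 1 match. That share is of windows and not of genes, several of which have more than 1 window. Matches lay in both windows of OCLN, which overlap each other, and in some windows of CLDN7, TJP1 and TJP3. The remaining windows of CLDN7, TJP1 and TJP3 held 0 matches. One start window of CLDN7 (chr17:7262429-7262728, minus strand) held 5, a number reached by 0.094% of all windows. Stretches of 30 bases around 6 of the matches, written 5′ to 3′ on the gene's strand with the E-box letters in capitals, are given here with the position of the first capital relative to the start. The stretch at -20 of CLDN7 also holds the match at -9.
CLDN7, position -174 (chr17:7262635-7262664): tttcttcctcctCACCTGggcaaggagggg
CLDN7, position -135 (chr17:7262596-7262625): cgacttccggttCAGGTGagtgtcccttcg
CLDN7, position -20 (chr17:7262481-7262510): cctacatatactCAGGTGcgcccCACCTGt
OCLN, position -33 (chr5:69492502-69492531): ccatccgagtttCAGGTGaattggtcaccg
OCLN, position -133 of its second window (chr5:69492645-69492674): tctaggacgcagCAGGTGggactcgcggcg
TJP1, position -88 (chr15:29969120-29969149): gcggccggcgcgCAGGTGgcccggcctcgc
In GENCODE v44 the CLDN7 and OCLN matches lie in exons annotated as untranslated in at least 1 transcript, and the TJP1 match lies upstream of the gene. The windows of CLDN1, CLDN4, CLDN12 and MARVELD2 held no match, which says only that these letters are not in those windows. The AP-1 letters TGANTCA (a palindrome, N being any base) were found 2 times in the CLDN4 window, at positions -242 and -161, while 7.71% of all windows hold that motif. A match is a description of the sequence and not evidence of binding.

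**Figure D1:**
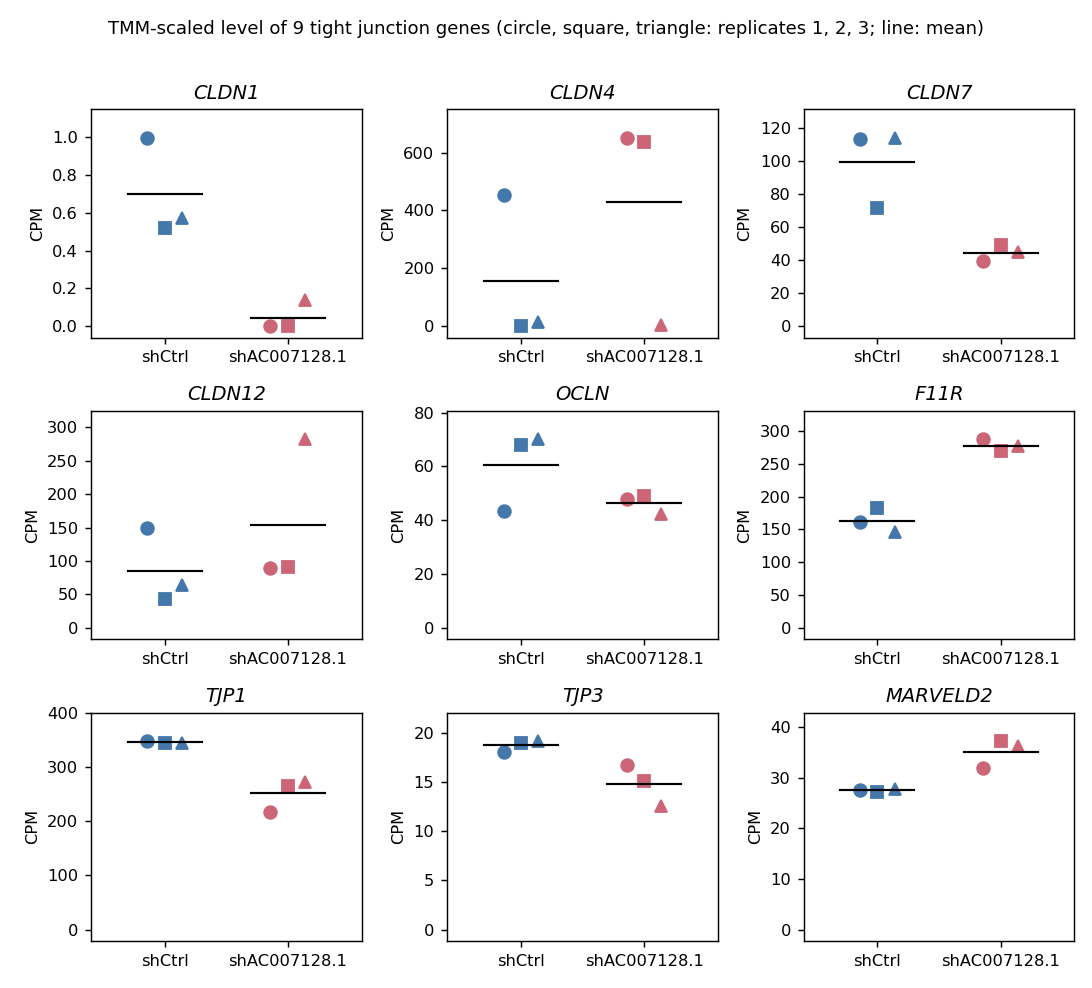
TMM-scaled CPM (y axis, 1 scale per gene) of the 9 tight junction genes in the 3 shCtrl (blue) and 3 shAC007128.1 (red) samples, with circles, squares and triangles for replicates 1, 2 and 3 and a line at the mean. F11R and MARVELD2 sit higher in all 3 shAC007128.1 samples, CLDN1, CLDN7, TJP1 and TJP3 sit lower in all 3, and CLDN4 is split within both groups, from 0.24 to 455 CPM in shCtrl samples and from 3.06 to 651 CPM in shAC007128.1 samples.

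Of the 4 claudins among the 9 genes, CLDN7 had the smallest p. Claudin-7 is a claudin of simple and stratified epithelia that is also found along the lateral membrane, where it binds EpCAM. The gene (ENSG00000181885, chromosome 17, 7259903 to 7263983 of hg38, minus strand, 4 exons in its canonical transcript) was at 113, 71.5 and 114 CPM in shCtrl replicates 1, 2 and 3. In shAC007128.1 replicates 1, 2 and 3 it was at 39.4, 49.2 and 45.1 CPM. No hairpin sample came up to the lowest control, although shCtrl replicate 2 stood well under the other 2 controls. The means were 99.7 ± 24.4 CPM (SD, n = 3) and 44.5 ± 4.9 CPM (SD, n = 3), so the level with the hairpin was 44.7% of control. CLDN7 fell by 1.16 on the log2 scale, with a standard error of 0.19 (edgeR adjusted p = 0.00263). It shares 269 of its 2492 exon bases with the readthrough gene ENSG00000262302, which stayed between 0.249 and 0.501 CPM.

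CLDN1, which encodes the claudin needed for the barrier of the epidermis, was close to the limit of detection in these cells. The gene (ENSG00000163347, chromosome 3, 190305707 to 190322446, minus strand) gave 73, 42 and 39 counts in shCtrl replicates 1, 2 and 3, or 0.998, 0.522 and 0.575 CPM. In shAC007128.1 replicates 1 and 2 it had 0 counts, each of which allows up to 3, and in replicate 3 it had 8. All 3 shAC007128.1 samples were therefore below all 3 shCtrl samples. CLDN1 fell by 3.85 on the log2 scale (standard error 1.08, edgeR adjusted p = 0.0251). The size of this fitted value is uncertain because 2 of the samples were at 0. It reached the filter on low counts through its shCtrl samples only, a route that favours a fall, so its fall supports no count. Leaving out any sample except shAC007128.1 replicate 3 put edgeR's adjusted p between 0.0512 and 0.0938.

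CLDN4 showed no usable difference between the groups, because its samples disagreed within each group. Claudin-4 is a barrier-forming claudin often abundant in carcinomas. The gene (ENSG00000189143, chromosome 7, 73799542 to 73832690, plus strand, a single exon in its canonical transcript) was at 455, 0.236 and 13.0 CPM in shCtrl replicates 1, 2 and 3. It was at 651, 636 and 3.06 CPM in shAC007128.1 replicates 1, 2 and 3. One control and a pair of hairpin samples were thus high, and the remaining 3 samples were low by factors that reach 1926 within shCtrl. The fitted difference was 1.46 ± 2.1 on the log2 scale (standard error, edgeR adjusted p = 0.616), and without shCtrl replicate 1 it was 6.03 (adjusted p = 0.113).

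A swing of this size was rare. Of 10057 genes with a mean of at least 10 CPM, 8 differed at least 10-fold between the highest and lowest sample of both groups, which is 0.0795%, and CLDN4 was 1 of them. Over those 10057 genes the median ratio of highest to lowest sample was 1.10 in shCtrl and 1.23 in shAC007128.1. The neighbouring genes did not move with it. CLDN3, the next claudin on chromosome 7, was between 1.33 and 1.74 CPM in the 6 samples, and METTL27 was at 31.3 to 32.8 CPM in shCtrl and 7.81 to 10.9 CPM in shAC007128.1 samples, without a split inside either group. The deposited values are estimates made by a program that is not named in the sources used here, and whether the swing lies in the cells or in that estimate was not tested.

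CLDN12, which encodes a claudin linked to paracellular calcium transport, also varied within the groups. The gene (ENSG00000157224, chromosome 7, 90383721 to 90513402, plus strand) was at 150, 43.8 and 63.6 CPM in shCtrl replicates 1, 2 and 3. It was at 90.2, 90.4 and 282 CPM in shAC007128.1 replicates 1, 2 and 3. The 2 groups overlapped, with shCtrl replicate 1 above 2 of the hairpin samples and shAC007128.1 replicate 3 above all others. The fitted difference was 0.85 ± 0.59 on the log2 scale (standard error, edgeR adjusted p = 0.290), and without shAC007128.1 replicate 3 it was 0.07 (adjusted p = 0.924). The gene shares 531 of its 6708 exon bases with PTTG1IP2, which had 0 counts, and 347 with GTPBP10, which ranged from 39.2 to 63.4 CPM.

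The MARVEL-domain genes gave no common direction. Occludin, encoded by OCLN (ENSG00000197822, chromosome 5, 69492292 to 69558104, plus strand), was at 43.6, 67.8 and 70.0 CPM in shCtrl replicates 1, 2 and 3. It was at 48.0, 49.0 and 42.5 CPM in shAC007128.1 replicates 1, 2 and 3. The groups overlapped because shCtrl replicate 1 lay among the hairpin samples. The fitted difference was -0.38 ± 0.18 on the log2 scale (standard error, edgeR adjusted p = 0.136), and without shCtrl replicate 1 it was -0.57, which passed (adjusted p = 0.0105). Reads of OCLN can be shared with the partial copy OCLNP1, at 1.56 to 2.40 CPM, and how many were shared was not measured.

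Tricellulin, the protein that closes the junction where 3 cells meet, is encoded by MARVELD2 (ENSG00000152939, chromosome 5, 69415065 to 69444330, plus strand), a close neighbour of OCLN. It was at 27.6, 27.3 and 27.8 CPM in shCtrl replicates 1, 2 and 3 and at 32.02, 37.3 and 36.3 CPM in shAC007128.1 replicates 1, 2 and 3. The controls lay close together and all 3 hairpin samples were above them. MARVELD2 rose by 0.35 on the log2 scale (standard error 0.09, edgeR adjusted p = 0.0195), from 27.5 ± 0.24 to 35.2 ± 2.8 CPM (SD, n = 3 each). This pass was a narrow one, lost with library size as the only scaling (adjusted p = 0.0505). The adjusted p was 0.0675 to 0.0746 when any 1 control was left out and 0.0677 without shAC007128.1 replicate 2.

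F11R had the smallest p of the 9 genes. Its product JAM-A joins cells through its immunoglobulin-like domains and binds zonula occludens proteins at its inner end. The gene (ENSG00000158769, chromosome 1, 160995211 to 161021343, minus strand) was at 161, 183 and 146 CPM in shCtrl replicates 1, 2 and 3. It was at 287, 269 and 277 CPM in shAC007128.1 replicates 1, 2 and 3, all above the controls. F11R rose from 163 ± 18.8 to 278 ± 9.0 CPM (SD, n = 3 each), or by 0.77 ± 0.09 on the log2 scale (standard error, edgeR adjusted p = 0.00071), which stayed under the 2-fold limit. A readthrough gene, ENSG00000270149, covers 1853 of its 5061 exon bases but was at 0.232 to 1.37 CPM, so little of the signal was assigned to it.

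Of the 2 scaffold genes, TJP1 fell. It encodes ZO-1, the protein on which claudins and occludin are assembled. The gene (ENSG00000104067, chromosome 15, 29699367 to 29968915, minus strand) was at 348, 345 and 344 CPM in shCtrl replicates 1, 2 and 3. It was at 218, 265 and 273 CPM in shAC007128.1 replicates 1, 2 and 3, so no sample of one group reached the other. TJP1 fell by 0.46 on the log2 scale (standard error 0.09, edgeR adjusted p = 0.00679), to 72.8% of control, and without shAC007128.1 replicate 1, the lowest sample, by 0.36 (adjusted p = 0.00705). TJP3 (ENSG00000105289, chromosome 19, 3708362 to 3750813, plus strand), encoding the related scaffold ZO-3, was at 18.1, 19.0 and 19.2 CPM in shCtrl replicates 1, 2 and 3. In shAC007128.1 replicates 1, 2 and 3 it was at 16.7, 15.1 and 12.6 CPM, also without overlap. Its log2 fold change of -0.34 (standard error 0.13) did not pass edgeR's test (adjusted p = 0.0739). It did pass with DESeq2 (adjusted p = 0.0375), with library size as the only scaling (edgeR adjusted p = 0.0431), and without shAC007128.1 replicate 1 (edgeR adjusted p = 0.0401). For every separated gene of the 9 the exact permutation p, taken in both directions, was 0.1, the smallest that 3 samples against 3 allow.

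**Figure D2:**
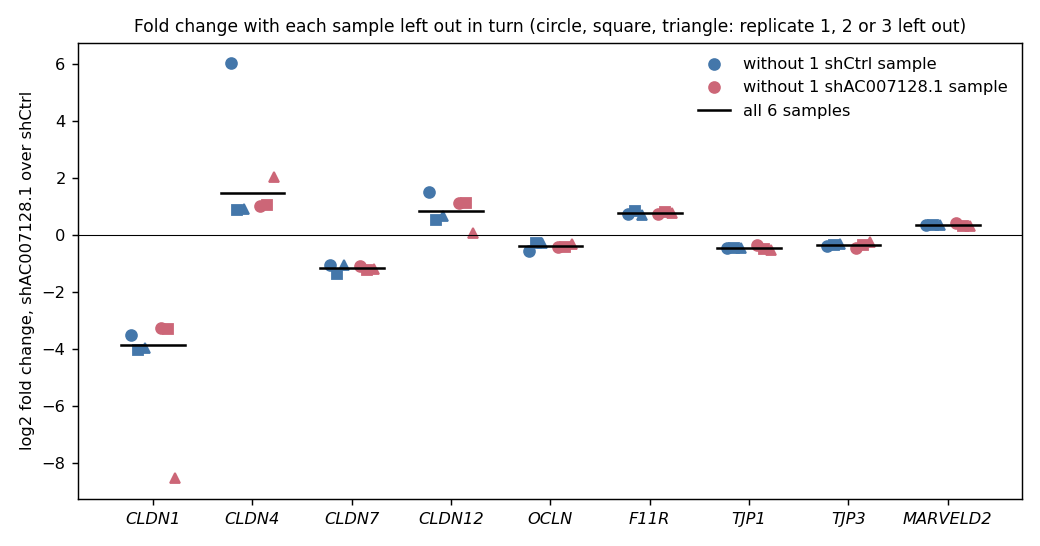
Log2 fold change of shAC007128.1 over shCtrl for each of the 9 genes, with all 6 samples (black line) and with each sample left out in turn (blue, 1 shCtrl sample left out; red, 1 shAC007128.1 sample left out). CLDN7, F11R, TJP1, TJP3, OCLN and MARVELD2 kept their sign within narrow ranges, while CLDN4 ran from 0.87 to 6.03, CLDN12 from 0.07 to 1.52 and CLDN1 from -8.54 to -3.28.

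Levels of different genes were compared as scaled CPM per kilobase of merged exons. In shCtrl samples CLDN7 had the highest median, 45.4 CPM per kilobase, followed by F11R at 31.8 and TJP1 at 30.5. The ranges of CLDN7 (28.7 to 45.8), F11R (28.8 to 36.2) and TJP1 (30.4 to 30.8) overlapped, so their order in control cells is not resolved. CLDN12 came next with a median of 9.48 CPM per kilobase, then OCLN at 6.02, MARVELD2 at 5.14 and TJP3 at 4.79. OCLN, with a range of 3.87 to 6.22, could not be ordered against MARVELD2 or TJP3, and CLDN1 was last at 0.158 CPM per kilobase.

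In shAC007128.1 samples the upper part of this order was resolved differently. F11R, at 53.2 to 56.7 CPM per kilobase, lay above TJP1 (19.3 to 24.1) and CLDN7 (15.8 to 19.7) in all 3 samples. TJP1 and CLDN7 overlapped slightly in range. CLDN4 had no fixed place, since its per-length level was 96.8 CPM per kilobase in shCtrl replicate 1, above every other gene of the 9, and 0.0503 in shCtrl replicate 2, below CLDN1. Of the summed per-length level of all 24 claudin genes, CLDN4 made up 54.2%, 0.101% and 3.94% in shCtrl replicates 1, 2 and 3 and 78.8%, 76.6% and 0.935% in shAC007128.1 replicates 1, 2 and 3. With CLDN4 set aside, CLDN7 made up 55.5% to 67.7% of the claudin total in shCtrl samples and 26.2% to 47.8% in shAC007128.1 samples. The 26.2% is shAC007128.1 replicate 3, in which CLDN12 made up 60.9%, and the other hairpin samples were at 42.4% and 47.8%.

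**Figure D3:**
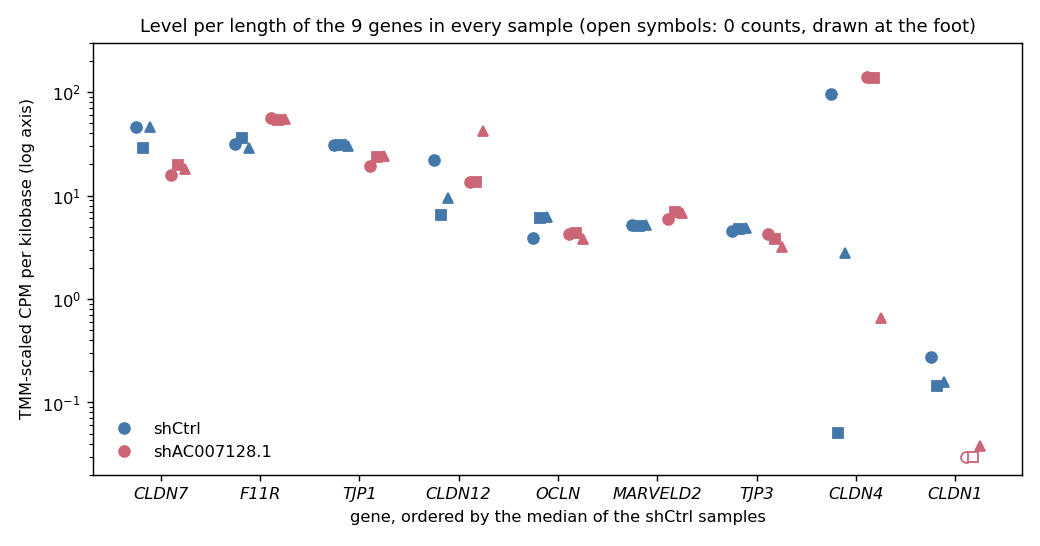
TMM-scaled CPM per kilobase of merged exons (log axis) of the 9 genes in every sample, ordered by the shCtrl median, with open symbols at the foot of the axis for 0 counts. F11R stands above CLDN7 and TJP1 in the shAC007128.1 samples (53.2 to 56.7 CPM per kilobase) but not in all shCtrl samples, and the CLDN4 points spread from 0.0503 to 139.

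The rest of the claudin family was at low levels, except CLDN15. With CLDN4 set aside, CLDN15 made up 10.1% to 17.4% of the claudin total in shCtrl samples and 5.56% to 10.2% in shAC007128.1 samples. Of the 20 other claudin genes, 12 did not pass the filter on low counts, 3 had 0 counts in every sample, and 2, CLDN15 and CLDN23, were above 3 CPM in any sample. Among the 8 that were tested 4 fell and 0 rose, beside 19.8% lower and 21% higher of all genes tested, a 0 that DESeq2, limma-voom and edgeR's unadjusted p under 0.05 gave as well. CLDN15, encoding a pore-forming claudin of the intestine, went from 23.0 ± 2.75 to 11.2 ± 0.24 CPM (SD, n = 3 each), or -1.03 ± 0.12 on the log2 scale (standard error, edgeR adjusted p = 0.000625). CLDN23 had a log2 fold change of -1.05 (adjusted p = 0.00854), CLDN2 of -1.30 (adjusted p = 0.0433) and CLDN9 of -0.72 (adjusted p = 0.047), each at mean levels of at most 2.85 CPM. CLDN3, CLDN16, CLDN18 and CLDN20 did not pass, with log2 fold changes of 0.16, -0.85, -0.16 and 0.48. The median over the 8 was -0.79. The 4 that fell reached the filter in every sample of both groups.

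Other tight junction membrane proteins were split in direction. Of 10 listed and 7 tested, 3 rose and 2 fell, beside 21% higher and 19.8% lower of all genes tested. JAM3, a relative of F11R found on many cell types, rose from 1.81 ± 0.36 to 4.38 ± 0.74 CPM (SD, n = 3 each; log2 fold change 1.27, edgeR adjusted p = 0.00415). ESAM, which also stands in the endothelial marker list, and ILDR1 fell, with log2 fold changes of -1.48 (adjusted p = 0.012) and -1.68 (adjusted p = 0.014), both from about 1 CPM or less in controls. ILDR1 reached the filter on low counts through its shCtrl samples only, so its fall supports no count, including that of the 2 that fell. CXADR and LSR, the first a virus receptor and the second a protein of tricellular contacts like tricellulin, rose by 0.67 on the log2 scale each (adjusted p = 0.00852 and 0.0214) and were named after their values were seen.

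Among plaque proteins, which lie under the membrane, 6 of 19 tested rose and 4 fell, with a median log2 fold change of 0.07. ARHGEF2, a RhoA activator that tight junctions hold inactive, was at 317, 313 and 300.4 CPM in shCtrl replicates 1, 2 and 3 and at 104.5, 101 and 91.2 CPM in shAC007128.1 replicates 1, 2 and 3. It fell by 1.65 on the log2 scale (standard error 0.08, edgeR adjusted p = 2.24e-05), a tighter and larger difference than that of TJP1. AMOTL2, an angiomotin-like protein that binds YAP, fell by 1.10 (adjusted p = 0.00766). MAGI3, a scaffold with several PDZ domains, rose by 1.12 (adjusted p = 8.28e-05), from 30.5 ± 1.71 to 66.6 ± 1.08 CPM. Over all 53 other tight junction genes, of which 34 were tested, 9 rose and 10 fell. ILDR1 is among the 10 and does not support that count. Of the 34, 2 were called higher and 7 lower (6 without ILDR1), and the median log2 fold change was 0.01. Of all genes tested, 21% rose and 19.8% fell, and 5.57% were called higher and 10.1% lower.

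**Figure D4:**
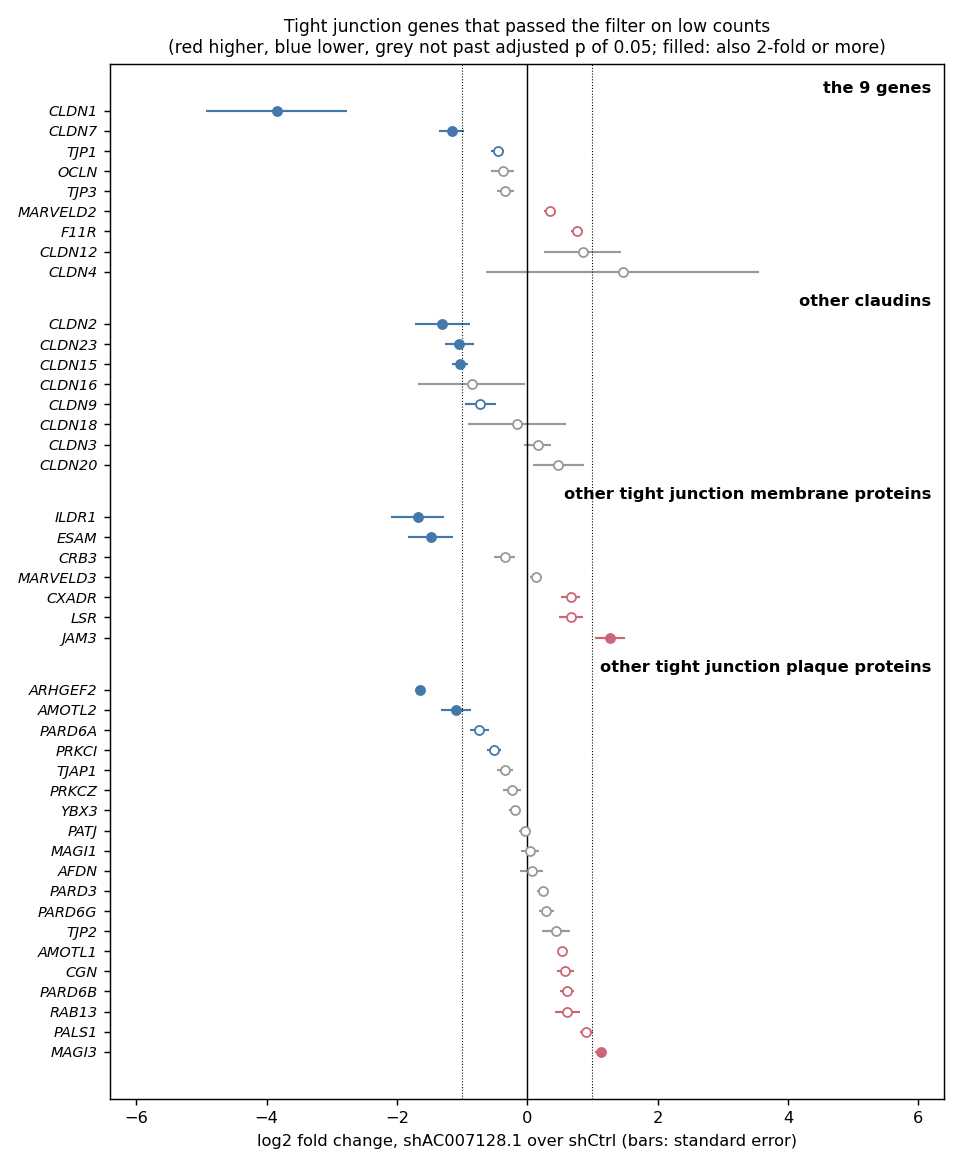
Log2 fold change of shAC007128.1 over shCtrl (x axis, bars of 1 standard error) for the 9 genes and the other tight junction genes that were tested, in red where higher and blue where lower at an adjusted p of at most 0.05, grey otherwise, and filled where the difference was also 2-fold or more. The 4 other claudins in colour all lie on the lower side, from CLDN2 at -1.30 to CLDN9 at -0.72, while membrane and plaque proteins lie on both sides.

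Claudin partners and adherens junction genes, other systems of the lateral membrane, were counted in the same way, beside 21% of all genes higher and 19.8% lower. Of 10 claudin partners and surface proteases, 6 rose, 0 fell and 0 were called in edgeR and DESeq2 alike, and 2, SPINT1 and SPINT2, were lower at an unadjusted p under 0.05 (log2 fold changes -0.18 and -0.23, without overlap). EPCAM, the claudin-7 partner named here after its values were seen, was at 165, 149.8 and 155 CPM in shCtrl replicates 1, 2 and 3 and at 299, 290.0 and 301 CPM in shAC007128.1 replicates 1, 2 and 3, or higher by 0.92 ± 0.07 on the log2 scale (standard error, edgeR adjusted p = 8.27e-05). EPCAM and CLDN7 thus went opposite ways in these samples. Of 11 adherens junction genes 10 were tested, 3 rose (4 in DESeq2), 0 fell and 0 were called in either tool, and at an unadjusted p under 0.05 there were 5 higher and 0 lower. The 3 were CTNNB1, CTNNA1 and CDH1, named after their values were seen, with log2 fold changes of 0.74, 0.45 and 0.21. Other catenin and cadherin genes of the list did not pass: JUP (log2 fold change 0.41), CTNND1 (-0.06) and CDH3 (-0.04).

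Transcription factors known to act on junction genes were also split, with 2 of 14 tested higher and 4 lower. Of all genes tested, 21% were higher and 19.8% lower, so these counts do not set the factors apart. EHF, an epithelial ETS factor, fell from 16.0 ± 0.22 to 4.31 ± 0.48 CPM (SD, n = 3 each; log2 fold change -1.90, edgeR adjusted p = 7.9e-05). SNAI2, a repressor that binds the E-box letters shown above, was at 68.2, 71.5 and 71.5 CPM in shCtrl replicates 1, 2 and 3. In shAC007128.1 replicates 1, 2 and 3 it was at 28.6, 28.5 and 34.3 CPM, and it fell by 1.21 on the log2 scale (standard error 0.10, adjusted p = 0.00014). ZEB1, another E-box repressor, rose from 2.60 ± 0.28 to 6.45 ± 0.86 CPM (log2 fold change 1.31, adjusted p = 0.00114). SNAI2 and ZEB1 therefore moved in opposite directions, with SNAI2 the more abundant in CPM in every sample. SNAI1, also of the Snail family, had 16, 20 and 24 counts in shCtrl replicates 1, 2 and 3. In shAC007128.1 replicates 1, 2 and 3 it had 4, 8 and 0. Its log2 fold change of -1.90 did not pass (edgeR adjusted p = 0.151), and it reached the filter on low counts through its shCtrl samples only. ZEB2 had 0 counts in every sample. Whether any of these repressors acts on the genes described here was not tested.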

How the data were processed

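RNA sequencing of KYSE150 cells gave 3 shCtrl and 3 shAC007128.1 samples, grouped by their titles. Per the study's methods, rRNA, adapter, short and low-quality reads were removed and the rest were mapped to hg38 with TopHat, while the submitters' processing notes name TopHat2 2.0.6, CASAVA 1.8, GRCh38 and mm10. The table deposited by the authors gives an estimated count, as a whole number and not normalized, for each Ensembl gene and sample. The counting program, annotation and use of strand are not given in the sources used here. Multiples of 4 are overfull among low values: 761 genes of shCtrl replicate 1 had 3 counts and 1355 had 4. 0 sample columns were left unmapped.

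Symbols and positions came from GENCODE v44 on hg38 (60357 identifiers matched). Counts were filtered with filterByExpr, scaled by TMM and tested in edgeR 4.0.16 (R 4.3.3, glmQLFTest). The standard error is the log2 fold change over the root of F. DESeq2 1.42.0, limma 3.58.1 and the other alternatives are given in the closing section. The steps were tested on simulated counts. The 9 genes, the lists and the tests were chosen with earlier results of these data known. Named genes are the 9, the 4 called genes with the smallest p in each other list, all tested claudins, the most abundant gene of each marker list and AC007128.1. Any other gene in the text was chosen after its values were seen.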

Additional observations from a re-analysis of the deposited data

How the results depend on the processing

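CLDN7 passed the test under all 16 alternatives tried (log2 fold change -1.36 to -1.06), and no gene of the 9 changed sign under any alternative in which it was tested. The alternative with no limit on the fold change keeps the same edgeR fit, so it could not alter a gene's pass or sign. The counts over all genes, 1073 higher and 1945 lower, moved by over 1.5 times only with no limit on the fold change (4041 and 3820). With no such limit 2 of the 9 were higher in place of 0, 9 other tight junction genes in place of 2, 3 adherens junction genes in place of 0, and 2 and 4 regulators in place of 1 and 2. The 2 genes called lower became 1 under division of all counts by 4 and under a minimum of 10 counts in each of the samples, where CLDN1 was no longer tested, and 1 with glmTreat against a fold of 1.5. With glmTreat 2 other tight junction genes were called lower in place of 7, and 1 adherens junction gene was higher, since that test has no 2-fold limit. Under glmTreat CLDN1 (-3.85, adjusted p = 0.063) and F11R (0.77) no longer passed. TJP1 (-0.46, or 1.37-fold lower) and MARVELD2 (0.35, or 1.28-fold higher) lie inside the 1.5-fold limit of that test, so they could not pass it. MARVELD2 also missed the threshold with library size only (0.28) and with no filter (0.31). TJP3 passed with DESeq2 (-0.35), library size only (-0.42) and counts divided by 4 (-0.36), and also without shAC007128.1 replicate 1. With each sample left out in turn, 1 to 2 of the 9 were called lower and 4 to 6 other tight junction genes, the 4 without shCtrl replicate 2. The log2 fold changes then ran from -8.54 to -3.28 for CLDN1, -0.57 to -0.26 for OCLN, -0.44 to -0.24 for TJP3 and 0.31 to 0.42 for MARVELD2. With the longest transcript as length, 7 of the 9 kept their place in the order of shCtrl medians, F11R and TJP1 trading places. In the order of shAC007128.1 medians F11R stayed above TJP1, and CLDN7 and CLDN12 traded places. The causes of the other changes were not tested.

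The replicate numbers gave no sign of pairing: deviations of same-numbered samples correlated at 0.031, -0.025 and -0.03, and 2 of 6 samples correlated best with their own number. With the replicate block 0 of the 9 were called higher and 2 lower, as without it, and MARVELD2 (0.35, adjusted p = 0.0502) was the only gene of the 9 to lose its pass. Depth limits CLDN1 and the rarer claudins, which rest on few counts.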

Other observations

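Besides CLDN4, 7 genes with a mean of at least 10 CPM differed at least 10-fold between samples within both groups. AHNAK, which encodes a very large scaffold protein, was at 1037, 52.4 and 997 CPM in shCtrl replicates 1, 2 and 3 and at 64.1, 1609 and 1676 CPM in shAC007128.1 replicates 1, 2 and 3. AHNAK and CLDN4 were both low in shCtrl replicate 2, but in shAC007128.1 samples AHNAK was low in replicate 1 and CLDN4 in replicate 3. BLOC1S5-TXNDC5 and PEDS1-UBE2V1, which are readthrough genes, ZBED6, FBXO34, TGFB2-OT1 and ENSG00000286185 are the others. All were named after their values were seen, and no explanation was tested.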
